A study of Mus musculus with 12 samples.

Results

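Transcripts that differed in kidney cortex between Tg26 and wild-type (WT) mice, and did so in the same direction under each of the 2 treatments of the study, are described here. Outer cortex was taken at 12 weeks of age, and messenger RNA was sequenced from 12 mice in 4 groups of 3: WT under INT-747, Tg26 under INT-747, WT under NR and Tg26 under NR. Tg26 mice carry a transgene made from an HIV provirus that lacks part of its genes, and they are a model of HIV-associated nephropathy. INT-747, or obeticholic acid, activates the bile acid receptor FXR, and NR is nicotinamide riboside, a precursor of NAD. Every mouse received one of these compounds, and no untreated group was analysed here, so each difference between the genotypes is one seen in treated mice. The promoter that drives the transgene, the doses, how and for how long they were given, and the sex and strain of the mice are not stated in the labels. All 6 Tg26 mice were set against all 6 WT mice with treatment as an additive term, and 25 of 15708 genes tested passed an adjusted p of 0.05 with the same sign under both treatments.

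HIV-associated nephropathy is known for collapse of the glomerular tuft, dilated tubules filled with protein casts, and infiltration of the interstitium by immune cells. Tubule cells under such stress are known to lose transcripts of fatty acid oxidation, the main energy source of the proximal tubule, and to switch on injury genes such as Havcr1, Lcn2, Vim and Sox4. Retinoic acid, unfolded protein, NF-kB and cyclic AMP signalling have each been studied in this disease or in injured kidney, and members of these pathways are among the genes below.

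The label of the tissue was checked against its markers, and the 20 genes of a proximal tubule list together took 24399 to 57698 counts-per-million (CPM) in every library. The transgene itself was not analysed here, so the genotype labels were not checked by it. Total counts were 22286343 to 28952177 per library, and mitochondrial transcripts took 7.94% to 9.97% of them. Replicate 3 of the Tg26 mice under NR stood apart: Xist had 5816 counts there and 1 to 8 in the other 11 libraries, and Ddx3y, Eif2s3y, Kdm5d and Uty had 0 counts there and 339 or more in the others, the pattern of a female mouse among males. Its sum over the proximal tubule list was the lowest of all. The main counts of genes are therefore given with all 12 libraries and with the 11 others. Nothing beyond the labels says how mice were assigned, and the p-values measure the spread between these samples.

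The call rests on edgeR's quasi-likelihood test with Benjamini-Hochberg adjustment over all genes tested. Of the 25 genes called (0.159% of those tested), 7 were higher in Tg26 mice (0.0446%) and 18 lower (0.115%). All 25, which were chosen on these same mice, separated the 3 Tg26 from the 3 WT mice without overlap under INT-747 and again under NR, as did 408 genes overall (2.6%), of which 162 were higher (1.03%) and 246 lower (1.57%). The same sign under both treatments was seen for 50.4% of all genes. In bulk tissue, a change in the number of cells of a type and one in the RNA of each cell cannot be told apart. The adjusted p-values of the 25 were close to the threshold, from 0.0191 to 0.0463, with 19 genes at 0.0463 and the next gene at 0.0551. At an unadjusted p under 0.05 there were 2876 genes (18.3%), and at an adjusted p under 0.10 there were 268 (1.71%). The number called depended on single libraries. With Tg26 replicate 3 under NR left out it was 701 of 16033 (4.37%), with WT replicate 1 under NR left out 301, and with Tg26 replicate 3 under INT-747 left out 43. It was 9 and 4 when Tg26 replicates 1 and 2 under NR were dropped, 2 when WT replicate 2 under INT-747 was, and 0 when any one of the other 6 was: WT replicates 1 and 3 and Tg26 replicates 1 and 2 under INT-747, and WT replicates 2 and 3 under NR. In each of these 12 fits all 25 genes had the same sign and an unadjusted p under 0.05. Among all genes tested, 2042 to 3705 had such a p in these fits. The 25 genes were chosen on these same mice, and each fit reuses most of them, so this is no separate support.

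**Figure D1:**
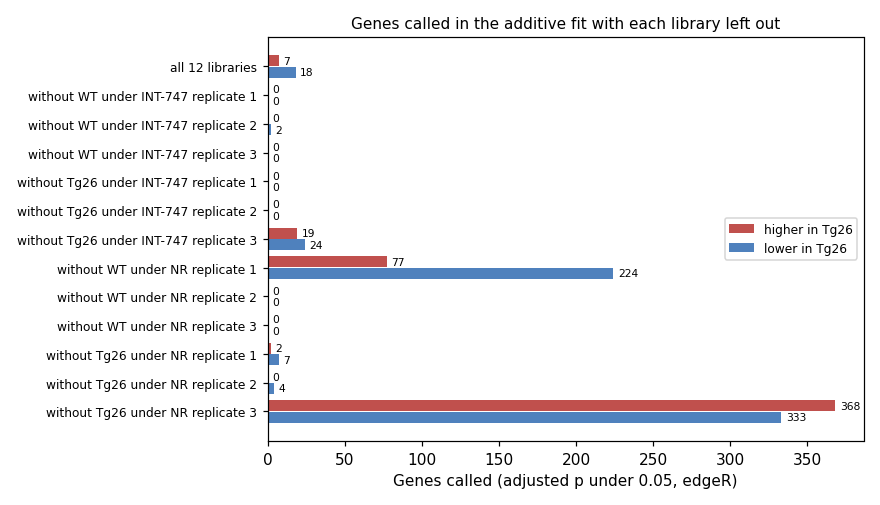
Genes called higher (red) or lower (blue) in Tg26 cortex in the additive edgeR fit with all 12 libraries and with each library left out. The bars run from 0 genes to 368 higher and 333 lower genes, the 2 longest bars being those without Tg26 replicate 3 under NR.

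The gene with the smallest p was Aspg, which encodes an asparaginase, an enzyme that splits asparagine into aspartate and ammonia (ENSMUSG00000037686.6, chr12:112106679-112127559, plus strand, mm10). Under INT-747 it stood at 122, 100.3 and 103 CPM in the WT mice and at 56.9, 56.6 and 76.3 in the Tg26 mice, and under NR at 102, 118 and 109 in WT and at 67.3, 64.7 and 54.8 in Tg26 mice. Every Tg26 mouse lay below every WT mouse, and the fall was close in size in both treatments (log2 fold change −0.80, SE 0.09, adjusted p = 0.0191 in all; −0.78 under INT-747 and −0.81 under NR). Dio3os is a noncoding RNA read from the strand opposite to Dio3, the gene of the deiodinase that inactivates thyroid hormone, in an imprinted cluster (chr12:110275385-110278172, minus strand). It was at 23.4, 37.9 and 23.9 CPM in WT and 4.42, 5.07 and 5.66 in Tg26 mice under INT-747, and at 12.9, 26 and 23.6 in WT and 8.35, 6.37 and 9.07 in Tg26 mice under NR. It fell most of all genes called lower (log2 fold change −1.93, SE 0.25, adjusted p = 0.0255), from 24.6 ± 8.0 (SD, n = 6) to 6.49 ± 1.85 CPM (SD, n = 6). The fall was larger under INT-747 (−2.49) than under NR (−1.39), an interaction with an unadjusted p of 0.0146 and an adjusted p of 0.274 in edgeR. Both genes are on chromosome 12, 1.83 Mb apart. Of the 87 other genes tested within 5 Mb of Aspg, Dio3os was the 1 called. Over the 11 libraries without Tg26 replicate 3 under NR, 5 of the 87 were called (Dio3os, Gpr132, Ahnak2, Ighg2b and Ighg1), where 4.37% of all genes were.

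The promoters of these 2 genes are printed as those of the genes with the smallest p and the largest fall among the genes called. That of Gpr146, described below, is printed because it holds the only E-box found among the called genes. Each runs from 250 bases before to 50 bases after a RefSeq start in GRCm38.p6, 5′ to 3′ on the gene's strand: Aspg at chr12:112106433-112106732 (plus), Dio3os at chr12:110278019-110278318 (minus) and Gpr146 at chr5:139380389-139380688 (plus; the other 2 of its 3 starts have no E-box). Capitals mark the E-box CACGTG, the sequence to which the clock factors CLOCK and BMAL1 bind, searched for on both strands.
Aspg: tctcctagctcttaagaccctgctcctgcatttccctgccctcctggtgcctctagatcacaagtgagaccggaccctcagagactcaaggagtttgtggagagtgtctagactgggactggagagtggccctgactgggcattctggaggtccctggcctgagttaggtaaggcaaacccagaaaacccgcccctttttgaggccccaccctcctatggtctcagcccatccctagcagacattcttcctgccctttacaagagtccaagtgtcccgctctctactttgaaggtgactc
Dio3os: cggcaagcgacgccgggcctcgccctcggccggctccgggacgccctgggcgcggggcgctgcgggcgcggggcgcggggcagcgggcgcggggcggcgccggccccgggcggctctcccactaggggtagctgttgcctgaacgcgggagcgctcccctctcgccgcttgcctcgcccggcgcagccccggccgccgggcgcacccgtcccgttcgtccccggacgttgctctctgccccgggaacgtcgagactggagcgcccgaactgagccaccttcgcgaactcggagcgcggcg
Gpr146: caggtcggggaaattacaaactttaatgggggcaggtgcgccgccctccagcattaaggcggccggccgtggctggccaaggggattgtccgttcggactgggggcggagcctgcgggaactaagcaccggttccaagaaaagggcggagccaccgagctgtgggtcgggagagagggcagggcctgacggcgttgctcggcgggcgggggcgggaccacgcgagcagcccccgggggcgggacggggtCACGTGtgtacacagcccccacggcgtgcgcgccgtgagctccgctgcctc
The E-box of Gpr146 begins 1 base before the start. An E-box was found in the promoters of 1 of the 19 called genes with a RefSeq promoter and in 11.4% of the 11412 genes tested that have one. The D-box TTATGTAA and the amino acid response element TGATGCAA, on either strand, were found in 0 of the 19, against 0.736% and 0.727% of all. A match of letters is a description and not a binding site.

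Several of the other genes called lower encode secreted, membrane or signalling proteins. Notum encodes an esterase that removes the lipid of Wnt proteins and so inactivates them. It stood at 50.8, 50.2 and 47 CPM in WT and 31.3, 26.5 and 31 in Tg26 mice under INT-747, and at 50.1, 52.7 and 53.9 in WT and 32.2, 38.1 and 43.9 in Tg26 mice under NR (log2 fold change −0.60, SE 0.08, adjusted p = 0.0288). Egfr, the receptor of epidermal growth factor, was at 86.7, 85 and 81.9 CPM in WT and 59.7, 64.6 and 65.4 in Tg26 mice under INT-747, and at 85.3, 82.8 and 77.8 in WT and 68.3, 71.4 and 65.4 in Tg26 mice under NR (log2 fold change −0.34, SE 0.06, adjusted p = 0.0463), so that the lowest WT mouse lay above the highest Tg26 mouse across both treatments. Gpr146, an orphan G protein-coupled receptor, was at 70.1, 76.1 and 62.4 CPM in WT and 40.3, 42.4 and 38.4 in Tg26 mice under INT-747, and at 66.3, 94.6 and 93.6 in WT and 57.9, 64.5 and 60.9 in Tg26 mice under NR (log2 −0.63, SE 0.10). WT replicate 1 under NR lay just above the highest Tg26 mouse of that treatment. The receptor tyrosine phosphatase Ptpru stood at 47.5, 47.4 and 39.3 CPM in WT and 26.8, 28.1 and 23.6 in Tg26 mice under INT-747, and at 55.5, 52.5 and 47.7 in WT and 40.2, 36 and 44.3 in Tg26 mice under NR. It fell by more under INT-747 (−0.77) than under NR (−0.37), an interaction with an unadjusted p of 0.0229 and an adjusted p of 0.285 in edgeR. Tmem140, a membrane protein, fell from 64.7 ± 7.01 (SD, n = 6) to 40.6 ± 6.74 CPM (SD, n = 6), and Cnnm3, of a family tied to magnesium transport, from 42.9 ± 5.32 to 29.2 ± 3.25. Irak2, a kinase of Toll-like and interleukin-1 receptor signalling, fell from 41.6 ± 4.71 to 31.6 ± 3.81 CPM (log2 −0.40, SE 0.07).

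Another set of genes called lower acts on RNA and chromatin. Rbm38 encodes an RNA-binding protein that is a target of p53. It stood at 15, 16.5 and 16.1 CPM in WT and 8.25, 10.5 and 8.49 in Tg26 mice under INT-747, and at 15.3, 19.1 and 23.6 in WT and 7.86, 9.45 and 4.4 in Tg26 mice under NR (log2 fold change −1.11, SE 0.19, adjusted p = 0.0463), and was lowest in replicate 3 of the Tg26 mice under NR. Without that library its log2 fold change was −0.96. Ezh1, a methyltransferase of Polycomb repressive complex 2, fell from 75.6 ± 5.41 (SD, n = 6) to 60.2 ± 4.96 CPM (SD, n = 6), and Gle1, which acts in export of messenger RNA, from 48.9 ± 1.75 to 38.2 ± 3.16. Samd1, which binds unmethylated CpG-rich DNA, fell from 31.8 ± 4.25 to 24.3 ± 2.62 CPM, and Top1mt, the topoisomerase of mitochondria, from 36.2 ± 2.26 to 29.2 ± 1.94. Pnkd, named for a movement disorder, fell as well, from 138, 156 and 161 CPM in the WT mice under INT-747 and 134, 139.8 and 171 under NR to 105, 105 and 116 CPM in the Tg26 mice under INT-747 and 101, 101 and 96.7 under NR. These 5 changes were small, with log2 fold changes of −0.33, −0.36, −0.38, −0.31 and −0.53, and in none of them did the Tg26 and WT mice of a treatment overlap. The noncoding genes Gm15889 (log2 −0.64, SE 0.10) and Gm15883 (log2 −0.62, SE 0.10) fell too. These 2, Top1mt and Gm20463 lie outside the rule by which genes were named and were chosen after their values were seen.

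A pair of genes of cyclic AMP signalling were called in opposite directions. Pde4c, a phosphodiesterase that breaks down cyclic AMP, fell from 227 ± 24.5 (SD, n = 6) to 161 ± 11.6 CPM (SD, n = 6; log2 fold change −0.49, SE 0.08, adjusted p = 0.0463). Pkia, an inhibitor of the kinase that cyclic AMP activates, rose. It was at 17.6, 14 and 15.5 CPM in WT and 23.7, 22.1 and 24 in Tg26 mice under INT-747, and at 14.2, 10.5 and 11.1 in WT and 20.4, 15.2 and 19 in Tg26 mice under NR (log2 fold change 0.59, SE 0.10, adjusted p = 0.0463).

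The other genes called higher act in retinoid synthesis, the cytoskeleton, the endoplasmic reticulum, transcription and NF-kB control. Aldh1a2 makes retinoic acid from retinaldehyde (chr9:71215789-71296243). It was at 1.08, 0.484 and 1.04 CPM in WT and 3.7, 6.47 and 2.18 in Tg26 mice under INT-747, and at 0.887, 1.07 and 1.02 in WT and 13.9, 4.23 and 3.06 in Tg26 mice under NR. WT levels were near or below 1 CPM, and among the Tg26 mice replicate 1 under NR stood far above the rest (log2 fold change 2.55, SE 0.42, adjusted p = 0.0463). The transcription factor gene Sox4 stood at 3.0, 4.8 and 3.38 CPM in WT and 9.51, 6.47 and 6.36 in Tg26 mice under INT-747, and at 4.44, 4.91 and 5.64 in WT and 13.3, 8.51 and 8.08 in Tg26 mice under NR. Its rise was close in size in both (0.99 and 1.0; log2 fold change 0.99, SE 0.17, adjusted p = 0.0463 in all). Sdf2l1, part of a chaperone complex of the endoplasmic reticulum, was at 3.18, 3.2 and 3.94 CPM in WT and 6.69, 7.39 and 6.36 in Tg26 mice under INT-747, and at 3.15, 2.68 and 2.08 in WT and 5.34, 5.92 and 3.37 in Tg26 mice under NR (log2 fold change 0.94, SE 0.16, adjusted p = 0.0463). Nes encodes nestin, an intermediate filament found in podocytes of the kidney. It was at 17.9, 18.2 and 15.2 CPM in WT and 23.8, 34.1 and 21.2 in Tg26 mice under INT-747, and at 15.3, 13.6 and 17 in WT and 38.6, 31.9 and 27.7 in Tg26 mice under NR (log2 fold change 0.86, SE 0.14, adjusted p = 0.0463). Tnip1, which binds the NF-kB inhibitor A20, rose from 25.3 ± 2.03 (SD, n = 6) to 34 ± 3.21 CPM (SD, n = 6; log2 0.43, SE 0.07).

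**Figure D2:**
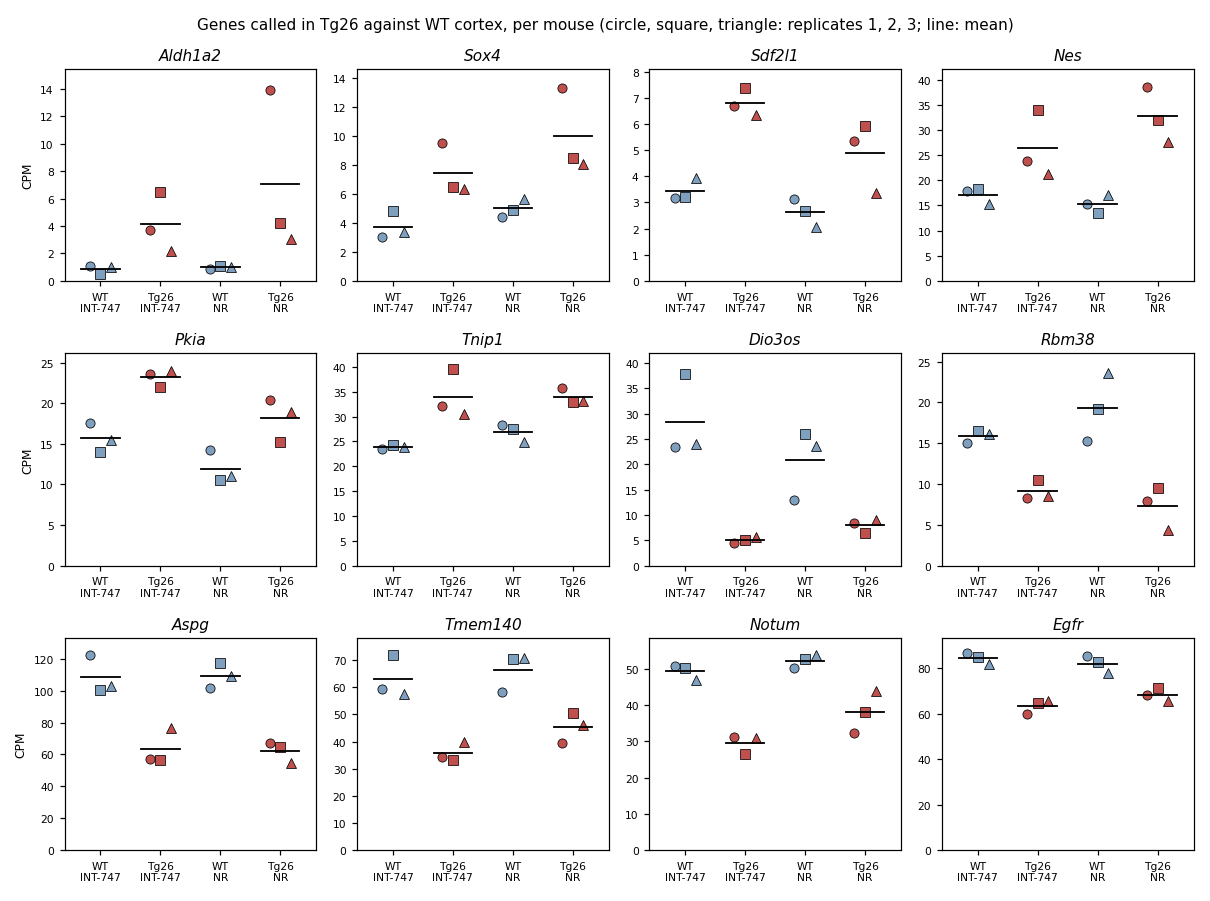
Counts-per-million in each mouse for 12 of the 25 genes called, with WT mice in blue, Tg26 mice in red and the group mean as a line. In each panel the Tg26 points of a treatment lie wholly above or below its WT points, for example for Dio3os and Aldh1a2.

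Gm20463 is an antisense gene that overlaps Rnf5 on the other strand (chr17:34601151-34601576, plus strand). It had 0 counts in all 6 WT libraries, 24, 31 and 7 counts in the Tg26 mice under INT-747, and 29, 28 and 8 in the Tg26 mice under NR. Against the limit of 3 counts over the 6 WT libraries it was at least 41.2-fold higher in Tg26 mice. Rnf5 itself had 1526 to 2004 counts in WT and 1598 to 2088 in Tg26 libraries (log2 0.01, adjusted p = 0.975). The libraries were stranded, but the strand setting of the counting is not stated. How reads of the stretch that the 2 genes share were assigned is therefore not known. Only 4 genes had 0 counts in every WT and at least 1 in every Tg26 library (Spink12, Gm20512, Gm20463 and A530083I20Rik), of which the others did not exceed 16 counts, and 0 genes had the reverse. Of the 107 other genes tested within 1 Mb of Gm20463, 0 were called with 12 libraries and 10 with 11 (where 4.37% of all genes were called), among them Aif1, C4b, Psmb8 and H2-Ab1.

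The sizes of the effect under the 2 treatments were compared gene by gene. Of the 25 genes, 13 had the larger fold change under INT-747 and 12 under NR. The interaction in edgeR had an unadjusted p under 0.05 for Dio3os and Ptpru alone, where 15.5% of all genes did. The 25 were chosen on these same mice by the additive fit, which favours genes of like effect in both treatments. These counts are therefore no separate support for equal effects. Among all genes, 0 passed the interaction test after adjustment in edgeR and 247 did in DESeq2. With each treatment taken alone, 42 genes were called under INT-747 (0.267%) and 0 under NR, where 3244 (20.7%) had an unadjusted p under 0.05 and DESeq2 called 967. Without Tg26 replicate 3 under NR the counts were 195 under INT-747 and 333 under NR, with 0 for the interaction. Without Tg26 replicate 2 under NR they were 41 and 785, with 174 for the interaction. In a stricter reading, in which the larger of both p-values had to pass, 0 genes were left in edgeR, with 330 at an unadjusted p under 0.05 in both (2.1%; 131 higher, 0.834%, and 199 lower, 1.27%), and 3 in DESeq2. When each treatment was fitted on its own 6 libraries, which share no mouse, 571 genes were called under INT-747. Under NR 361 of these (63.2%) had the same sign, against 50.8% of all genes, and 59 (10.3%) also had an unadjusted p under 0.05, against 9.07%. Without Tg26 replicate 3 under NR the share of the same sign was 77.8%, against 56.8% of all genes. The 375 genes called under NR in that case had the same sign under INT-747 in 350 cases (93.3%), and 85 (22.7%) also had an unadjusted p under 0.05 there, against 14.1% of all genes.

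**Figure D3:**
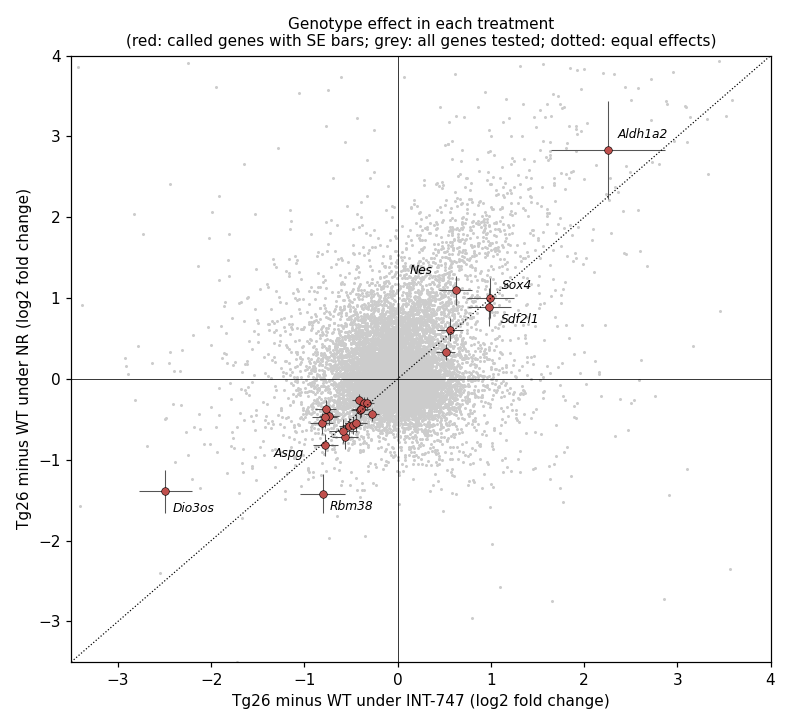
Log2 fold change of Tg26 against WT mice under INT-747 (x axis) and under NR (y axis) for 15634 of the genes tested (grey; 74 lie outside the axes) and for 24 called genes in red with standard errors, Gm20463 left out. The red points lie near the dotted line of equal effects, with Dio3os to its left and Rbm38 below it. They were chosen on these same mice by the additive fit, which favours genes of like effect in both treatments.

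A score of the circadian clock moved with the genotype as well. This score, the mean log2 CPM of 10 output and repressor genes such as Nr1d2 and Per3 minus that of Npas2, Arntl, Clock and Nfil3, was higher in Tg26 than in WT mice by 1.98 on average over the treatments (exact permutation test within treatments, two-sided p = 0.045, smallest possible 0.005, 400 arrangements). The genes of the score were chosen with earlier results of these data known, so this p is not that of an independent test. Under INT-747 the genotypes did not overlap in score. Under NR WT replicate 1 had a score of 3.25, within the Tg26 range, and Tg26 replicate 3 had 0.576, within the WT range. Npas2, which pairs with BMAL1 and is one of the genes the score is made from, was at 2.31, 16.2 and 20.4 CPM in WT and 1.4, 1.07 and 10.7 in Tg26 mice under NR, so that WT replicate 1 was near the Tg26 level and Tg26 replicate 3 well above the other Tg26 mice. With the score as a covariate 0 genes were called, and the lowest adjusted p was 0.192, with 2135 genes at an unadjusted p under 0.05. All 25 genes, which were chosen on these same mice, kept their sign and an unadjusted p under 0.05 in that fit. Their adjusted p-values were 0.192 to 0.228. Their log2 fold changes were 0.873 times those without the score in the median (0.628 to 1.10). The labels do not state the time of day of collection, and under INT-747 score and genotype cannot be told apart.

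The Tg26 mice differed widely from one another in transcripts of injury and of macrophages. Summed over the tubular injury list, in CPM of the total counts, the WT mice stood at 639.6, 696 and 595 under INT-747 and 531, 618 and 640.5 under NR. The Tg26 mice stood at 691, 1249.5 and 557 under INT-747 and 2887, 1059 and 1459.6 under NR. The macrophage list was at 291, 336 and 333 in WT and 425, 1184 and 289.6 in Tg26 mice under INT-747, and at 240.2, 244 and 224 in WT and 2175, 1054 and 267 in Tg26 mice under NR. Tg26 replicate 3 under INT-747 was below the lowest WT mouse of its treatment on both lists. Tg26 replicate 3 under NR was close above the WT mice of its treatment on the macrophage list, but below the WT mice under INT-747. On the injury list it was above the WT mice of both treatments. The part of immune cells and injury in the difference of the 25 genes was not tested.

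**Figure D4:**
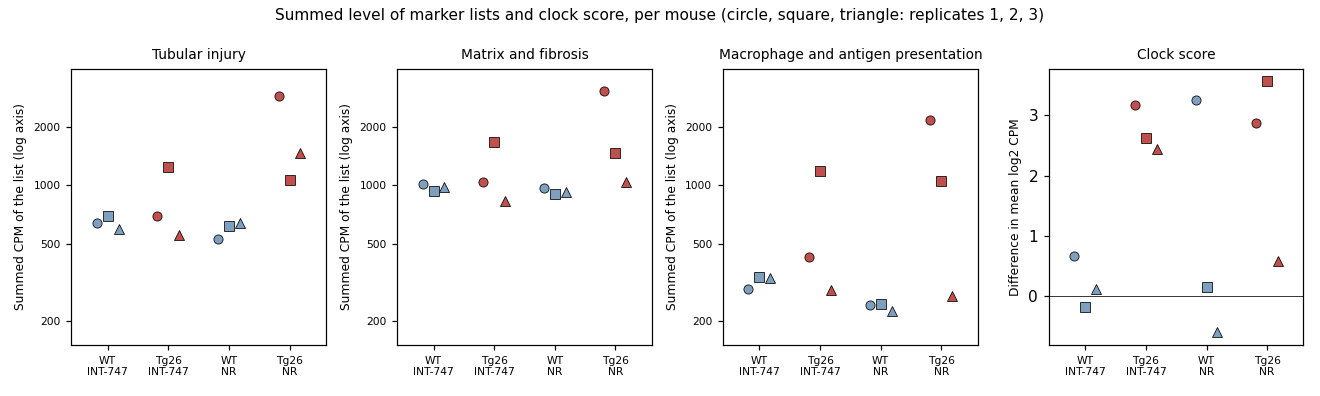
Summed counts-per-million of 3 gene lists on log axes, and the clock score, for each mouse, with WT in blue and Tg26 in red. Tg26 replicate 3 under INT-747 (red triangle) lies among or below the WT mice in the 3 lists, and under NR WT replicate 1 (blue circle) and Tg26 replicate 3 exchange places in the clock score.

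Without Tg26 replicate 3 under NR, the calls were 368 genes higher (2.3%) and 333 genes lower (2.08%) in the Tg26 kidneys, all with the same sign under both treatments. The 25 genes were all among them, at adjusted p-values of 0.0103 to 0.0265. Their log2 fold changes, Gm20463 aside, ran from −2.03 for Dio3os to 2.72 for Aldh1a2, with −0.75 for Aspg, −0.33 for Egfr, 0.89 for Nes and 1.04 for Sdf2l1. Of the 701 genes, 439 separated the genotypes within each treatment over the 11 mice and 181 over all 12. Over all 12 mice 408 of all genes tested (2.6%) did so, and the share over the 11 mice was not counted. The 701 genes were called on these same mice, so these counts are no separate support. Of the 687 called genes that were also tested with 12 libraries, 686 had the same sign there and 620 an unadjusted p under 0.05. Among all genes tested there, 2876 (18.3%) had such a p. The 12 libraries include the 11 on which these genes were called, so this is no separate support. At least 2-fold changes were more frequent among genes that rose (245) than among those that fell (42). Of the higher genes 284 rose by more under NR, and of the lower genes 205 fell by more under INT-747, while 0 genes passed the interaction test of edgeR over the 11 libraries.

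Genes that rose over the 11 libraries included those of antibodies, kidney injury and leukocyte recruitment. Ighg2b, an immunoglobulin heavy chain constant gene, was at 0.628, 0.633 and 0.217 CPM in WT and 3.54, 3.63 and 1.31 in Tg26 mice under INT-747, and at 0.577, 0.268 and 0.353 in WT and 10.3, 13.5 and 0.919 in Tg26 mice under NR (log2 3.67, SE 0.49, adjusted p = 0.0137), the mouse left out being the lowest of the Tg26 mice. Ighg1, a neighbouring gene of the same kind with which it may share reads, rose too (log2 4.17, SE 0.52, adjusted p = 0.0123). In the mouse left out Ighg1 was at 0.498 CPM, within the WT range of its treatment. Havcr1, which encodes kidney injury molecule 1, was at 1.48, 1.38 and 1.95 CPM in WT and 4.63, 29.7 and 3.18 in Tg26 mice under INT-747, and at 2.88, 1.61 and 4.82 in WT and 59, 11.8 and 0.88 in Tg26 mice under NR (log2 3.25, SE 0.69, adjusted p = 0.0371). The spread among Tg26 mice was wide, with replicate 1 under NR highest and the mouse left out below every WT mouse. C7, of the terminal complement pathway, was at 1.84, 1.08 and 1.13 CPM in WT and 6.82, 9.38 and 3.22 in Tg26 mice under INT-747, and at 1.73, 1.43 and 0.823 in WT and 11.9, 4.23 and 2.3 in Tg26 mice under NR, and separated the genotypes with that mouse included (log2 2.43, SE 0.35, adjusted p = 0.0144). Vcam1, an adhesion molecule for leukocytes, and S100a6, a calcium-binding protein, separated them too, at log2 fold changes of 2.35 and 1.96. Others named by the rule were the amine oxidase Aoc1 (3.41), the chemokines Ccl9 (2.41), Cxcl1 (2.39) and Ccl6 (1.96), the lymphocyte surface protein Cd52 (2.15), Ankrd6 (2.01) and Igkv10-96 (2.54). In the mouse left out Cxcl1 (1.57 CPM), Ccl6 (1.19) and Igkv10-96 (0.153) lay below every WT mouse. Ccl9 (0.919) lay below the WT mice of its treatment there, and Aoc1 (1.76) among them. With 12 libraries the adjusted p-values of these genes in edgeR ran from 0.113 for Aoc1 to 0.165 for Igkv10-96. Cd52 and Ankrd6 separated the genotypes with that mouse included.

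Genes that fell over the 11 libraries included clock factors, mitochondrial proteins and enzymes of fatty acid handling. Npas2 (log2 −3.39, SE 0.53, adjusted p = 0.0195) and Arntl, which encodes BMAL1 (−2.28), fell most among the genes named. The cell cycle inhibitor Cdkn1a was at 107, 155 and 115 CPM in WT and 17.6, 30.9 and 29.8 in Tg26 mice under INT-747, and at 30.2, 120.0 and 140.0 in WT and 23.4, 24.9 and 136 in Tg26 mice under NR (log2 −2.14, SE 0.37, adjusted p = 0.0243). WT replicate 1 under NR, of high clock score, was at the Tg26 level, and the mouse left out, of low score, at the WT level. Slc25a22, the mitochondrial glutamate carrier, was at 232, 261 and 259 CPM in WT and 67.5, 97.5 and 161 in Tg26 mice under INT-747, and at 147, 337 and 382 in WT and 67.6, 106 and 157 in Tg26 mice under NR (log2 −1.44, SE 0.30, adjusted p = 0.0334). Clpx, part of a mitochondrial protease, fell by 1.32 on the log2 scale. The acyl-CoA thioesterases Acot1 (−2.02) and Acot2 (−1.31), which are close paralogs and may share reads, the acyl-CoA synthetase Acsl1 (−1.29) and the thiolase Acaa1b (−1.26) fell as well. Acsl1 was at 972 CPM in the mouse left out, above every other mouse, and its log2 fold change with that mouse was −0.56 with an adjusted p of 0.642. Acot1 (232 CPM) was highest in that mouse too, and Acot2 (73.3) and Arntl (22.5) were within the WT range there. With 12 libraries the log2 fold changes of Acot1, Acot2 and Arntl were −1.38, −0.93 and −1.58 (adjusted p = 0.245, 0.240 and 0.198 in edgeR). The nuclear receptor Nr1i3 (−1.64), Cyp2d12 (−1.98), Smad9 (−1.31), Armc12 (−1.21) and Hpdl (−1.27) completed the named genes. Each of these fell by more under INT-747 (−2.50, −2.79, −1.56, −1.70 and −1.79) than under NR (−0.78, −1.03, −1.03, −0.67 and −0.72) over the 11 libraries. With 12 libraries the interaction of Nr1i3 had an unadjusted p of 0.000553 and an adjusted p of 0.183 in edgeR. The left-out mouse also set the values of Cyp2d12 and Smad9: with it their log2 fold changes were −1.16 (adjusted p = 0.472) and −0.53 (adjusted p = 0.659), and under NR alone 0.40 and 0.37. Hpdl separated the genotypes in all 12 mice (adjusted p = 0.0551 with 12 libraries). With the clock score as a covariate 0 genes were called over the 11 libraries too, where 1386 of 16033 genes had an unadjusted p under 0.05. Of the 25 shared genes, which were chosen on these same mice, 22 did. The adjusted p-values of the 25 were 0.548 to 0.657 in that fit.

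The gene lists were read by counts and medians beside the median of all genes, which was 0.00. Of all 15708 genes tested, 50.4% had the same sign under both treatments. With each treatment fitted on its own libraries 7987 genes did, of which 4044 were higher under both. In the additive fit 0.0446% of all genes were called higher and 0.115% lower with 12 libraries, and 2.3% and 2.08% over 11. The genotypes separated without overlap in both treatments for 2.6% of all genes. The counts of every list given below are to be read beside these shares. Most lists of injury and immunity were higher under both treatments, although few of their members passed the test with 12 libraries. Of 16 tubular injury genes 14 were higher under both treatments and 1 lower under both, with medians of 0.84 under INT-747 and 2.15 under NR. Sox4 was called with 12 libraries, and 8 rose over 11, among them Krt19, Lcn2 and Vim. Vim, an intermediate filament of dedifferentiated tubule cells, was at 15.7, 21.4 and 17.8 CPM in WT and 23.7, 50.5 and 22.6 in Tg26 mice under INT-747, and at 16.2, 14.9 and 18.2 in WT and 72.9, 41.8 and 38.8 in Tg26 mice under NR. Of 20 macrophage and antigen presentation genes, 20 were higher under both (medians 0.98 and 1.99), 0 were called with 12 libraries and 6 rose over 11 (Fcgr1, Laptm5, Lyz2, Tyrobp, Cd68 and H2-Ab1). Of 25 matrix genes 22 were higher under both, and 7 rose over 11, among them Timp1, Sparc and Col1a1. Of 18 chemokine and NF-kB genes 17 were higher under both, with Cxcl2, Ccl2 and Tnfaip3 among the 7 that rose over 11. Of 16 complement genes 14 were higher under both, and 4 rose over 11 (Masp1, C4b, Cfp and C3). Immediate early genes were higher under both for 7 of 9, and Nr4a1, an early response nuclear receptor, separated the genotypes in all 12 mice. Nr4a1 was at 4.12, 6.48 and 4.68 CPM in WT and 24, 9.02 and 10.8 in Tg26 mice under INT-747, and at 4.13, 6.07 and 5.33 in WT and 10.5, 7.85 and 14 in Tg26 mice under NR. Type I interferon-stimulated genes were higher under both for 17 of 23 (medians 0.11 and 0.64), and 0 of them passed the test with 12 or 11 libraries.

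Transcripts of fatty acid oxidation were lower in most members of their list. Of 30 genes 26 were lower under both treatments and 0 higher under both, and the medians were −0.40 under INT-747 and −0.45 under NR. With 12 libraries 0 were called. Over 11 libraries 8 fell, where 2.08% of all genes did, among them Etfdh, Cpt2, Acadvl and Vnn1. Cpt2, a carnitine transferase of the mitochondrial inner membrane, was at 263, 292 and 233 CPM in WT and 179.6, 179 and 227 in Tg26 mice under INT-747, and at 299, 345 and 343 in WT and 151, 229.5 and 241 in Tg26 mice under NR. It separated the genotypes in all 12 mice (log2 −0.55, adjusted p = 0.0877), as did Acadvl, Cpt1a, Etfdh, Hadh and Etfa. Of 18 genes of the tricarboxylic acid cycle 13 were lower under both, with a median of −0.14, and Idh2 fell over the 11 libraries. Nuclear genes of the respiratory chain had a median of 0.00, with 15 of 39 lower and 1 higher under both and 0 called with 12 or 11 libraries.

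Other lists had medians of unlike sign in the 2 treatments or close to 0. Chaperones of the endoplasmic reticulum had medians of 0.54 under INT-747 and −0.02 under NR, with 10 of 24 higher under both. Of these 24 genes Sdf2l1 was called with 12 libraries and 7 rose over 11, where 2.3% of all genes did. Heat shock genes had medians of 0.52 and −0.16, with 6 of 27 higher under both. Loop of Henle markers had medians of −0.29 and 0.50, with 1 of 10 of one sign in both, and no member was called. Podocyte markers were higher under both for 8 of 14, with a median of 0.13, and Ptpro, a phosphatase of podocytes, rose over the 11 libraries. Of 12 FXR targets 5 were higher under both, with medians of 0.02 and 0.54. Of 26 genes of NAD metabolism 6 were higher and 9 lower under both, with a median of −0.02, and Kmo fell over the 11 libraries. In the retinoid list Aldh1a2 rose, while over the 11 libraries Cyp26b1, which degrades retinoic acid, and Dhrs3, which reduces retinaldehyde, fell. Cyp26b1 was at 29, 32.7 and 29.9 CPM in WT and 7.79, 7.86 and 10.9 in Tg26 mice under INT-747, and at 27.7, 30 and 22.2 in WT and 18, 19.9 and 29.4 in Tg26 mice under NR, so that the genotypes overlapped under NR when all 3 Tg26 mice were counted.

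Markers of immune cells other than macrophages were higher under both treatments for 10 of 11 T cell genes, 5 of 7 B and plasma cell genes and 3 of 3 neutrophil genes, with 0 called with 12 libraries. The neutrophil gene S100a9 separated the genotypes in all 12 mice, as 2.6% of all genes did. It was at 0.0448, 0.223 and 0.0866 CPM in WT and 2.15, 0.759 and 0.436 in Tg26 mice under INT-747. Under NR it was at 0.133, 0.0892 and 0.0784 in WT and 1.23, 1.48 and 0.23 in Tg26 mice. These levels are near the floor and rest on few reads. Under NR the separation is that of 0.23 CPM in Tg26 replicate 3 from 0.133 in WT replicate 1. Of markers of tissues that could be carried along in dissection, 1 of 7 adipocyte, 1 of 6 skeletal muscle, 2 of 5 adrenal and 6 of 6 liver genes were high enough to be tested, and the liver genes summed to 3.80 to 50.9 CPM. Of these lists 0 genes were called with 12 libraries, and Lipe, which encodes hormone-sensitive lipase, fell over 11 (log2 −0.79).

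**Figure D5:**
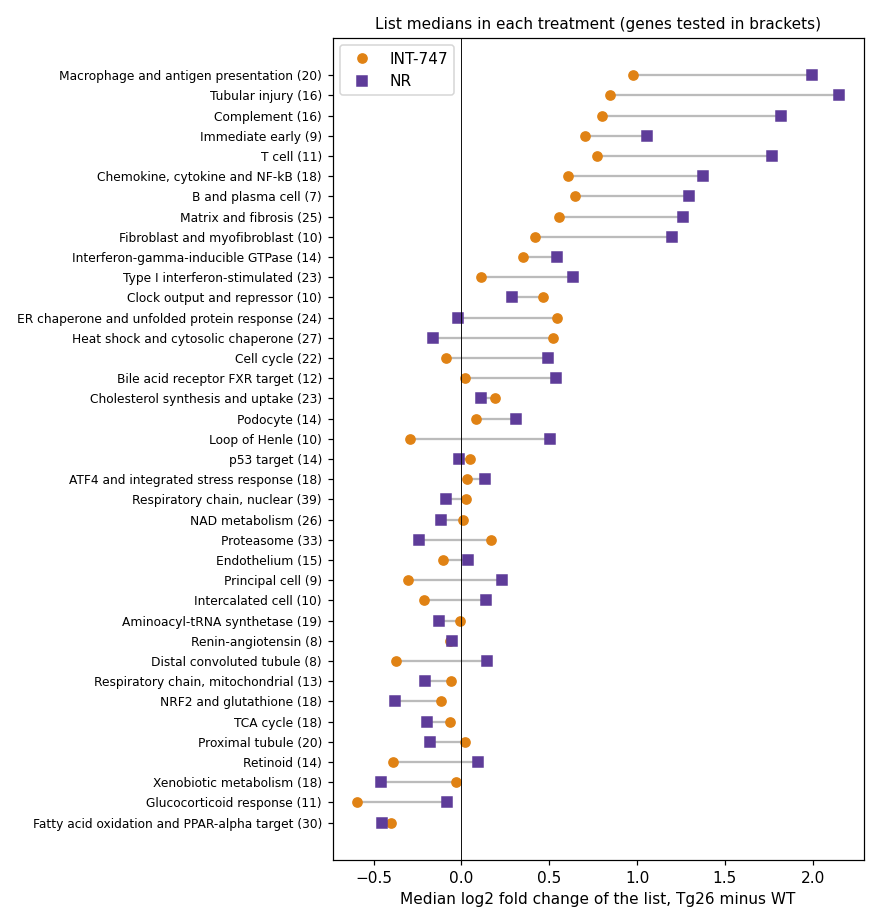
Median log2 fold change of Tg26 against WT mice for each list with at least 7 genes tested, under INT-747 (orange circles) and NR (purple squares). Injury and immune lists lie to the right of 0 under both treatments and further right under NR, and the fatty acid oxidation list lies at −0.40 and −0.45.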

How the data were processed

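Per the labels' protocols, outer cortex RNA was made into stranded TruSeq mRNA libraries. Per the submitters' processing notes, bcl2fastq 2.17, cutadapt 1.18, STAR 2.7.0f and RSEM 1.3.1 were used with the build mm10, with no order or settings given. The values deposited by the authors are RSEM expected counts per gene, not scaled to library size; 0 of them were not whole numbers. All 55450 gene IDs with their symbols were found in GENCODE release M21, which gave the positions.

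Genes were filtered with filterByExpr on the 4 groups and scaled by TMM; gene CPM use that scaling, and sums over lists use total counts. Promoters are RefSeq regions in GRCm38.p6. The additive fit (treatment and genotype, 9 residual degrees of freedom) and a fit with a mean per group (8) used edgeR 4.0.16 with robust quasi-likelihood tests in R 4.3.3, with limma 3.58.1 and DESeq2 1.42.0 as alternatives. The common biological coefficient of variation was 0.229 with 12 libraries and 0.189 with 11. An adjusted p under 0.05 is a call. Among called genes of mean log2 CPM of at least 1, one sign and no overlap in either treatment, up to 15 of largest change in each direction were named, then those of smallest p, leaving out predicted genes and pseudogenes; up to 4 genes of each list could be named. Some genes that this rule names are not reported here. Lists were counted, not tested. The members and lists were chosen with earlier results of these data known, and the fit on 11 libraries and the naming in it were added after seeing the data. On simulated data with 15473 genes, the additive fit of 12 libraries recovered 70.8% of 96 genes changed 2-fold and 94.9% of 99 changed 4-fold, with 3 unchanged genes called. Each gene was drawn on its own, with no effect of treatment, sex, injury or clock shared across genes. These shares may therefore not hold for the mice of this study. Limits from 0 counts cover counting error only.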

Additional observations from a re-analysis of the deposited data

How the results depend on the processing

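The count of 25 genes, all of one sign in both treatments, became 6 with RLE size factors (all 6 among the 25), 50 with no filter, 25 with a filter of 1 CPM in 3 libraries, 21 without robust estimation, 70 for the average of both contrasts, 7 with limma-voom, 1001 with DESeq2 (the 25 among them) and 0 with the clock score; leaving out libraries gave 0 to 701. The cause of these shifts was not tested. In every setting run the 25 genes, which were chosen on these same mice, kept their sign, and of 550 values of single genes 249 passed the threshold. Under INT-747 alone the count of 42 became 64 with no filter, 525 with DESeq2, 2 with the clock score, 571 in its own 6 libraries and 0 to 195 with a library left out. Under NR alone the count of 0 became 6 with no filter, 967 with DESeq2 and 0 to 785 with a library left out. The interaction count of 0 became 247 with DESeq2 and 0 to 174 with a library left out, and the count by the larger p became 3 with DESeq2. Over 11 libraries the count of 701 became 1734 with DESeq2, 388 with limma-voom, 0 with the clock score and 29 to 1262 with a further library left out. Same-numbered mice deviated together at correlations of −0.22 to 0.19, so the numbers are not taken to pair mice; with a replicate block the counts were 29 (13 of the 25 among them), 11 under INT-747 alone and 184 over 11 libraries. Of 923 list medians under these settings 31 moved by more than the spread between replicates. Changes under 2-fold were not simulated, so the share of them that 3 mice a group can show at this depth is not known.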
